A study of Mus musculus with 24 samples.

Results

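Between zeitgeber time 8 (ZT8) and ZT12, islet alpha and beta cells of the mouse pass through the last 4 h before the time at which, by the convention of zeitgeber time, the lights go off. The labels set ZT8 at 3PM and ZT12 at 7PM and do not give the lighting schedule of the animals. The comparison set the 4 libraries made at ZT12 (2 of alpha cells, 2 of beta cells) against the 4 made at ZT8 (2 of alpha cells, 2 of beta cells), 8 of the 24 libraries of the series, with cell type as a factor, and then took the step in each cell type alone. All groups came from a strain labelled triple reporter mouse; the reporters, their promoters, and the sex and age of the animals are not stated in the labels, and no group carries a treatment or a further allele in the labels. Whether a group's 2 libraries stem from different mice is not stated, so every p-value here reflects the spread among these libraries alone and that spread may be technical. The labelled time is that of islet isolation.

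The circadian clock of mammalian cells is a feedback loop of transcription. The activators BMAL1 (gene Arntl) and CLOCK or NPAS2 bind E-box sequences and switch on the Period and Cryptochrome genes, whose proteins return to block them, while the nuclear receptors REV-ERB and ROR repress or activate Arntl itself, and the PAR bZIP factors DBP, TEF and HLF pass the rhythm on to other genes through D-box sequences. In the islet this clock is known to act on the secretion of insulin and glucagon.

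The main hormone RNA of each labelled cell type was high in its own libraries. Gcg, which encodes glucagon, lay between 129300 and 165000 RPKM (a read density normalised to gene length and depth) in the 4 alpha libraries and between 36.6 and 93.1 RPKM in the 4 beta libraries, and the insulin gene Ins2 between 282 and 810 RPKM in alpha and between 164600 and 219300 RPKM in beta libraries. RNA of other islet cells was present too. The 3 PP cell markers summed to between 36656 and 59540 RPKM in alpha libraries and between 370 and 553 RPKM in beta libraries. The 6 delta cell markers summed to between 2517 and 3784 RPKM in alpha and between 978 and 1540 RPKM in beta libraries. Which cells this RNA came from was not tested. The reads behind the 8 libraries numbered between 4944982 (ZT12 alpha, replicate 2) and 12364190 (ZT8 alpha, replicate 2), with a median of 193 reads per gene. The ZT8 libraries stood apart from each other in several gene groups before any comparison with ZT12, of which 2 are given here and others below. Of 33 immediate early genes, which many stimuli switch on within minutes, 33 were lowest in replicate 1 and 32 highest in replicate 2 of the ZT8 alpha cells among the 4 alpha libraries, and 30 were lowest in replicate 1 and 26 highest in replicate 2 of the ZT8 beta cells among the 4 beta libraries. Their summed level was 587 and 3447 RPKM in the ZT8 alpha libraries against 1784 and 1878 at ZT12, and 422 and 1515 RPKM in the ZT8 beta libraries against 903 and 917 at ZT12. None of the 33 was called between ZT8 and ZT12 by the test described below, and none had an unadjusted p under 0.05. Acinar markers, genes of the digestive enzymes of the exocrine pancreas, ran the other way at ZT8, with sums over 21 genes of 339 and 108 RPKM (alpha) and 507 and 64.6 RPKM (beta) against 198 and 625 RPKM and 172 and 383 RPKM at ZT12, and none of the 21 was called or had an unadjusted p under 0.05. All 21 were higher at ZT12 as the mean of both cell types. Their median step from ZT8 to ZT12 was 0.78 on the log2 scale, against -0.03 over all genes. This median depended on the libraries used and ran from -0.32 to 1.85 over the alternative settings. In bulk RNA such as this, fewer cells of a type and less RNA per cell cannot be told apart.

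**Figure D1:**
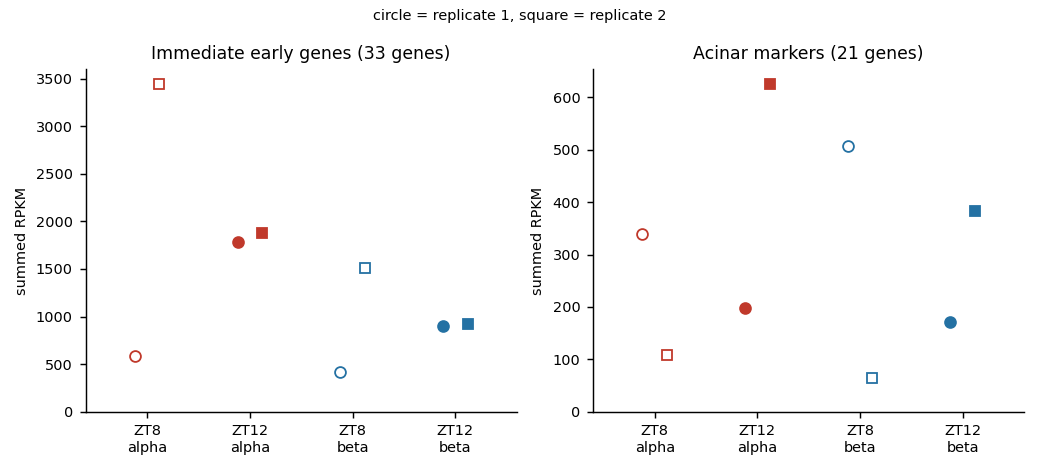
Summed RPKM (y axis) of 33 immediate early genes (left) and 21 acinar markers (right) in each of the 8 libraries, by time and cell type (x axis), circles for replicate 1 and squares for replicate 2. At ZT8 the 2 replicates of either cell type lie on both sides of the ZT12 libraries for the immediate early genes.

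Few genes were called over this interval. In a limma fit over all 24 libraries, with a gene called at a Benjamini-Hochberg adjusted p under 0.05 over the 14027 genes, 46 genes (0.328%) differed between ZT8 and ZT12 as the mean of the alpha and beta steps, 20 of them higher (0.143%) and 26 lower (0.185%) at ZT12. All 20 higher genes were higher in every ZT12 library than in every ZT8 library of the same cell type, and 24 of the 26 lower genes were lower in the same sense. Of all genes tested, 1270 (9.05%) separated in this way upward and 1672 (11.9%) downward. The calls were made from these same libraries, so the separation of the called genes follows largely from the call and is no independent support. The change was at least 2-fold in 5 of the higher and 9 of the lower genes. An unadjusted limma p under 0.05 was reached by 1661 of the 14027 genes. With 2 libraries per group, a gene that was not called is not shown to be unchanged. Among the 6 times, 13 of the 20 higher genes had their highest mean level at ZT12, and 16 of the 26 lower genes their lowest. Genes called for their step to ZT12 are favoured in advance to have their extreme there. The share over all genes was not counted, so these counts are a description only.

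The neighbouring intervals, which share libraries with this one, gave 63 genes (0.449%) from ZT4 to ZT8 and 2876 genes (20.5%) from ZT12 to ZT16 in the same fit. The other intervals gave 641 (4.57%) from ZT0 to ZT4, 15 (0.107%) from ZT16 to ZT20 and 1 (0.00713%) from ZT20 to ZT0. The spread that limma uses comes from all 12 groups. With the 8 libraries alone, 307 genes (2.19%) were called, 140 higher and 167 lower, among them 45 of the 46. Leaving out any 1 of the 8 libraries gave between 16 and 34 genes. In alternatives chosen after seeing the data, without both replicate 1 libraries of ZT8, 26 genes were called, 15 of them among the 46, and without both replicate 2 libraries 12 genes, 8 of them among the 46. With recovered reads, voom and library totals together in place of the deposited values, the median step of all genes was 0.11 higher on the log2 scale, and 20 higher and 12 lower genes were called, against 20 and 26. The alpha and beta libraries of 1 time and number deviated together at some times, and with time and number as a random block 15 genes were called, all of them among the 46. Arntl, Tef, Fmo1, Fmo2, Fkbp5, Camta1, Krt7, Lpl, Rab6b, Pak1, Relt, Ppm1b and Glb1l2 kept their calls in that fit; the other calls given by name below over both cell types were lost in it.

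**Figure D2:**
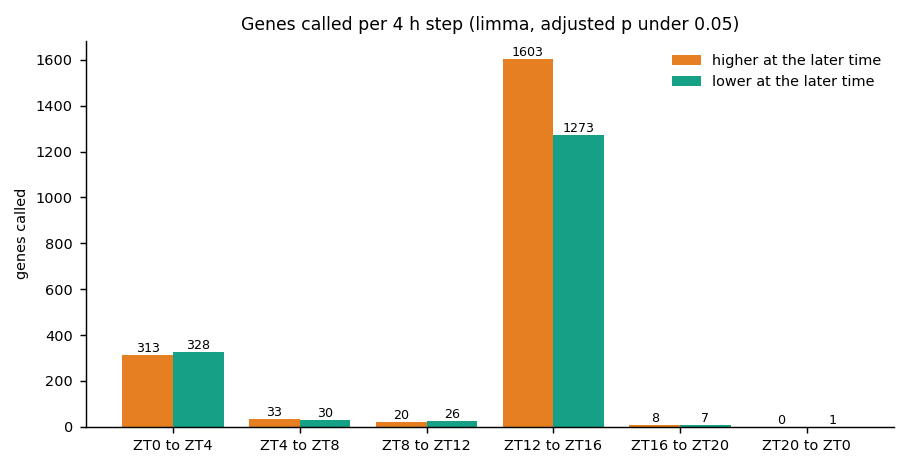
Number of genes called (y axis) higher or lower at the later time in each 4 h interval (x axis), as the mean step over both cell types. The interval ZT8 to ZT12 had 20 higher and 26 lower genes.

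Of the clock activators, Arntl and Npas2 fell. The median step of the 7 activators measured was -0.20 on the log2 scale, against -0.03 over all genes. It was -0.42 without replicate 1 of the ZT8 alpha cells and up to -0.15 without any 1 library. Over all alternative settings it ran from -0.54 to -0.055. Arntl, the gene of BMAL1 (chr7:113207465-113314126 of GRCm38, plus strand), had 5.97 and 5.73 RPKM at ZT8 and 1.42 and 1.43 RPKM at ZT12 in alpha cells. Beta cells had 0.863 and 1.63 RPKM at ZT8 and 0.421 and 0.693 RPKM at ZT12. Every ZT12 library was below every ZT8 library of its cell type, and the gene fell 2.86-fold over both (log2 step over both -1.52, SE 0.17, limma adjusted p = 0.000571). In alpha cells the fall was 3.96-fold (log2 step -1.99, SE 0.25, limma adjusted p = 0.00314), while in beta cells most of the daily fall had taken place before ZT8, from a mean of 8.89 RPKM at ZT4 to 1.25 at ZT8, and the step itself was -1.04 (adjusted p = 0.249 by limma). The difference of the 2 steps was -0.94 on the log2 scale (limma adjusted p = 1.00), so no difference between the cell types was established. ZT12 was the lowest of the 6 times for Arntl in both, at 1.43 RPKM (alpha) and 0.557 RPKM (beta). Npas2, a partner of BMAL1 that can stand in for CLOCK, was called lower (log2 step over both -2.04, SE 0.38, limma adjusted p = 0.0280) at very low levels, with 14 and 14 reads at ZT8 against 2 and 0 at ZT12 in alpha cells, and 6 and 5 against 0 and 1 in beta cells. Clock had 17.9 and 20.4 RPKM at ZT8 and 17.1 and 15.8 RPKM at ZT12 in alpha cells. Beta cells had 24.6 and 26.5 RPKM at ZT8 and 22.8 and 22.3 RPKM at ZT12. The times did not overlap, but its step of -0.20 missed the threshold (limma adjusted p = 0.328).

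The nuclear receptor genes Rora (-0.024) and Rorb (-0.68), given by their log2 steps over both cell types, did not pass the test, and the sign of the Rora step changed between settings. Arntl2, a paralog of Arntl, had a step of -0.20 (limma adjusted p = 0.837).

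To show which clock elements stand next to the genes described here, the RefSeq promoters (GRCm38.p6, 250 bases before to 50 after a transcription start) were searched on both strands for the E-boxes CACGTG and CACGTT, the D-boxes TTATGTAA and TTACGTAA, and the REV-ERB and ROR core elements TAGGTCA and TGGGTCA. Among all 32851 promoters 7.15% held CACGTG, 4.68% CACGTT, 0.938% TTATGTAA, 0.119% TTACGTAA, 2.61% TAGGTCA and 3.98% TGGGTCA. Of the 46 called genes, 39 had a promoter in the table, and 7 of the 39 held CACGTG, 4 CACGTT, 1 TAGGTCA and 0 any of the other 3 motifs. These 39 genes had 49 promoters, and a gene was counted if any of its promoters held the motif. The gene counts therefore have another unit than the shares of promoters. A motif match is a description of letters, not of binding. The windows below, each 5′ to 3′ on the strand of the gene, belong to the Arntl, Tef, Ciart, Per3 and Fmo2 genes, whose motif is in capitals: TAGGTCA for Arntl, CACGTG for Tef and Ciart, TTATGTAA for Per3 and CACGTT for Fmo2. No 2 matches overlap in them.
Arntl chr7:113207261-113207560 (+ strand): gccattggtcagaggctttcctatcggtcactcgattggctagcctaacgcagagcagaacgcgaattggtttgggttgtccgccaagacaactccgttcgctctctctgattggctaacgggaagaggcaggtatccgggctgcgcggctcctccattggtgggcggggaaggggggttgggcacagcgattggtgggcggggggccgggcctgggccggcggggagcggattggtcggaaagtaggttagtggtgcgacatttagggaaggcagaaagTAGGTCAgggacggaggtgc
Tef chr15:81802423-81802722 (+ strand): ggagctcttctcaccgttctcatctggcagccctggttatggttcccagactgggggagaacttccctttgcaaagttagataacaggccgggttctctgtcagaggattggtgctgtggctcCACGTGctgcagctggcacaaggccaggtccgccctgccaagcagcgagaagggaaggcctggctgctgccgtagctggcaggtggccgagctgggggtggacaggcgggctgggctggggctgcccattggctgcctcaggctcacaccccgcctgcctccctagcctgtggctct
Ciart chr3:95882179-95882478 (- strand): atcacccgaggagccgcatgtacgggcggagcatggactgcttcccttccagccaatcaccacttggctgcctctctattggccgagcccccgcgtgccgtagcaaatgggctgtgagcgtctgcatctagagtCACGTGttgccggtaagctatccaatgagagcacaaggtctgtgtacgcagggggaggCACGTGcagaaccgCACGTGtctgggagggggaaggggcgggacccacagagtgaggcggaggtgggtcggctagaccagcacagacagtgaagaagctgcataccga
Per3 chr4:151044616-151044915 (- strand): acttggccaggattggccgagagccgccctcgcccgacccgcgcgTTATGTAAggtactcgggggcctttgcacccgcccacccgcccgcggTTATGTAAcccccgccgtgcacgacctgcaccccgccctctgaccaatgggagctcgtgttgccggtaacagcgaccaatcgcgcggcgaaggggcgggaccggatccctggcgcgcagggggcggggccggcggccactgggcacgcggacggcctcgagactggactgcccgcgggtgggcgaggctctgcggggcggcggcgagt
Fmo2 chr1:162898444-162898743 (- strand): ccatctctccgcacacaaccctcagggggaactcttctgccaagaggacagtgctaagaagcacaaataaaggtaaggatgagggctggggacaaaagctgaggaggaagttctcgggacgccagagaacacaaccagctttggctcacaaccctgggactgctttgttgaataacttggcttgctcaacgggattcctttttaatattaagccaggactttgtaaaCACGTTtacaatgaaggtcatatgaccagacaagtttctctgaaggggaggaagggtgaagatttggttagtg
The Arntl match began at base 31 after the start, in 1 of the 2 starts listed for the gene. The Tef match began 127 bases before the start, and a second listed start of Tef also had CACGTG, 138 bases before it. Ciart had CACGTG 3 times, beginning 116, 58 and 44 bases before its start, Per3 had TTATGTAA 2 times, 205 and 158 bases before its start, and Fmo2 had CACGTT 23 bases before 1 of its 2 listed starts.

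The repressors mostly lay higher at ZT12, though none of the 11 measured was called by limma (7 higher and 2 lower at an unadjusted p under 0.05, against 744 and 917 of all 14027 genes). Of the 11, 9 had a positive step, 5 separated without overlap upward in both cell types and 0 downward, and the median step was 0.47 on the log2 scale (0.27 without replicate 1 of the ZT8 alpha cells and up to 0.61 without any 1 library). With the 8 libraries alone, 3 of the 11 were called higher, Per2, Per3 and Cry2. Per2, a core Period gene, had 4.87 and 4.67 RPKM at ZT8 and 11.3 and 11.9 RPKM at ZT12 in alpha cells. Beta cells had 6.75 and 7.91 RPKM at ZT8 and 12.9 and 11.5 RPKM at ZT12. All ZT12 libraries lay above all ZT8 libraries, and its step of 1.01 had an adjusted p of 0.0549 by limma (0.00153 with the 8 libraries alone). Per3 had 2.48 and 3.28 RPKM at ZT8 and 10.6 and 9.68 RPKM at ZT12 in alpha cells. Beta cells had 3.28 and 3.61 RPKM at ZT8 and 7.46 and 7.22 RPKM at ZT12. The step over both was 1.45 on the log2 scale (limma adjusted p = 0.148; 0.00138 with the 8 libraries alone). The Cryptochrome gene Cry2 had 19.5 and 22.8 RPKM at ZT8 and 26.9 and 29.1 RPKM at ZT12 in alpha cells. Beta cells had 17.8 and 19.6 RPKM at ZT8 and 29.1 and 32.0 RPKM at ZT12, again without overlap (step over both 0.56, limma adjusted p = 0.189; 0.0149 with the 8 libraries alone).

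Ciart, whose protein represses the BMAL1 and CLOCK pair, had 0.590 and 1.63 RPKM at ZT8 and 2.30 and 3.43 RPKM at ZT12 in alpha cells. Beta cells had 3.20 and 3.92 RPKM at ZT8 and 7.30 and 8.18 RPKM at ZT12 (step over both 1.27, limma adjusted p = 0.169). Its 2 alpha libraries of each time differed more than those of beta cells, and the times still did not overlap. Per1, which immediate early signals also induce, had 6.25 and 12.8 RPKM at ZT8 and 14.7 and 16.3 RPKM at ZT12 in alpha cells. Beta cells had 6.43 and 8.33 RPKM at ZT8 and 13.5 and 11.0 RPKM at ZT12 (step over both 0.76, limma adjusted p = 0.407). The times did not overlap in either cell type. Replicate 2 of the ZT8 alpha cells, the library with the highest immediate early genes, was well above replicate 1. Cry1, the other Cryptochrome gene, had 3.51 and 4.20 RPKM at ZT8 and 3.86 and 2.70 RPKM at ZT12 in alpha cells. Beta cells had 3.36 and 2.91 RPKM at ZT8 and 5.44 and 4.45 RPKM at ZT12, and the times overlapped in alpha cells (step over both 0.20, limma adjusted p = 0.513).

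The REV-ERB gene Nr1d1 had 6.13 and 8.10 RPKM at ZT8 and 5.92 and 6.91 RPKM at ZT12 in alpha cells. Beta cells had 12.3 and 10.4 RPKM at ZT8 and 5.67 and 7.53 RPKM at ZT12. Its sister Nr1d2 had 32.1 and 28.8 RPKM at ZT8 and 42.3 and 41.4 RPKM at ZT12 in alpha cells. Beta cells had 56.0 and 49.5 RPKM at ZT8 and 52.6 and 52.7 RPKM at ZT12. Nr1d1 lay lower at ZT12 without overlap in beta cells alone, and Nr1d2 higher without overlap in alpha cells alone. Their steps of -0.46 and 0.23 on the log2 scale were not called (limma adjusted p = 0.311 and 0.398). Nfil3, a repressor of D-box genes, had 8.91 and 27.0 RPKM at ZT8 and 3.62 and 4.48 RPKM at ZT12 in alpha cells, where replicate 2 of ZT8 was far above replicate 1, and 1.05 and 4.04 RPKM at ZT8 and 1.93 and 1.37 RPKM at ZT12 in beta cells (step over both -1.13, limma adjusted p = 0.255). The DEC genes Bhlhe40 and Bhlhe41 had steps of 0.47 and 0.22 (limma adjusted p = 0.496 and 0.414).

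**Figure D3:**
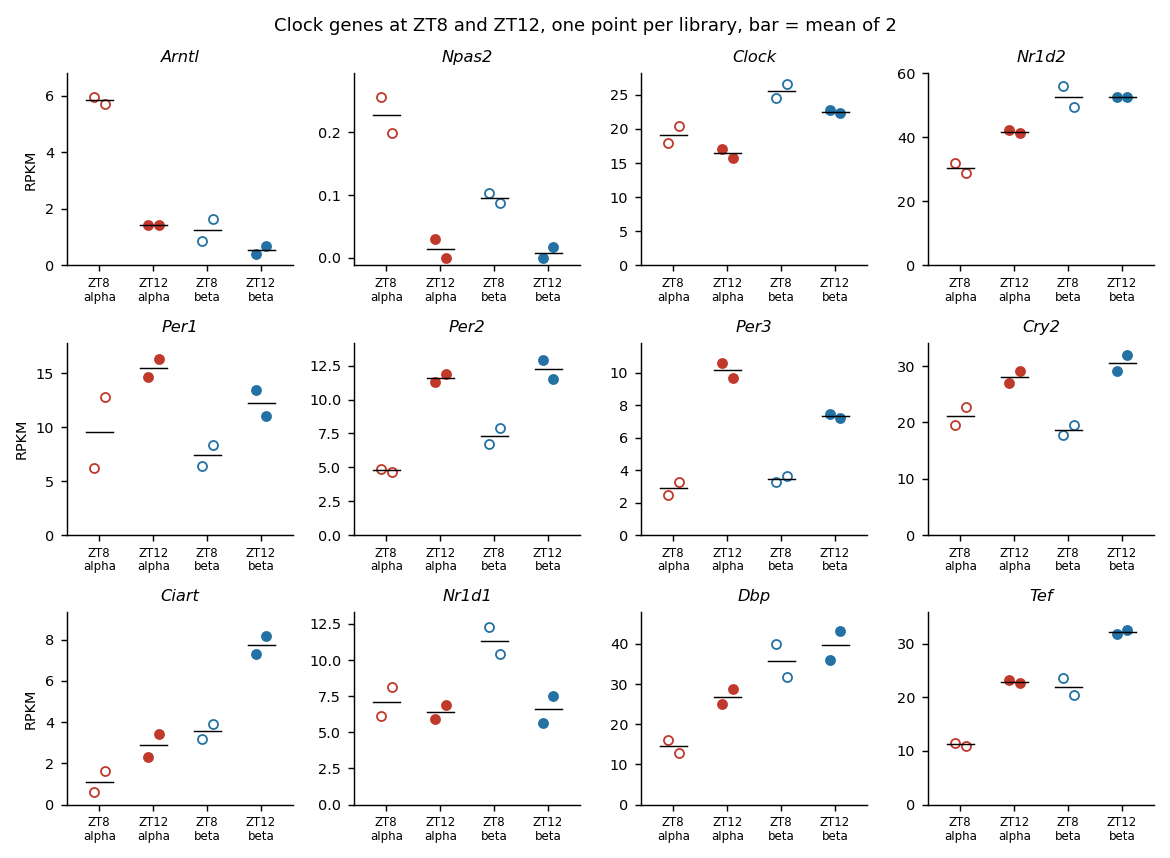
RPKM (y axis, linear, from 0 or just below it) of 12 clock genes in the ZT8 (open) and ZT12 (filled) libraries of alpha (red) and beta (blue) cells, one point per library, with bars at the mean of 2. Arntl, Npas2 and Clock lie lower and Per1, Per2, Per3, Cry2, Ciart and Tef higher at ZT12 in both cell types, without overlap.

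Of the 3 PAR bZIP output factors, Tef rose. It had 11.4 and 11.0 RPKM at ZT8 and 23.2 and 22.7 RPKM at ZT12 in alpha cells. Beta cells had 23.6 and 20.4 RPKM at ZT8 and 31.8 and 32.6 RPKM at ZT12, without overlap in either. The rise was 1.73-fold (log2 step over both 0.79, SE 0.11, limma adjusted p = 0.00260). Tef lies at chr15:81802421-81826863 of GRCm38 (plus strand). ZT12 was the highest of the 6 times for Tef in both cell types. The rise was called in alpha cells (2.04-fold, limma adjusted p = 0.0183) and had a step of 0.55 in beta cells (limma adjusted p = 0.416). Dbp had 16.1 and 12.8 RPKM at ZT8 and 25.1 and 28.7 RPKM at ZT12 in alpha cells. Beta cells had 39.9 and 31.7 RPKM at ZT8 and 36.0 and 43.3 RPKM at ZT12. The alpha libraries separated upward and the beta libraries overlapped (step over both 0.52, limma adjusted p = 0.105). Hlf had a step of 0.38 (limma adjusted p = 0.362).

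Of 19 other measured genes known to follow the clock, 4 were called higher and 0 lower, against 0.143% and 0.185% of all genes. Their median step was 0.38 on the log2 scale (0.23 without replicate 1 of the ZT8 alpha cells), against -0.03 over all genes. This list was written with earlier results of these data known, so its direction is not independent evidence. Fmo2, Noct and Mthfd1l were among those that rose. Fmo2, a flavin-containing monooxygenase (chr1:162874317-162898726 of GRCm38, minus strand), had 0.167 and 0.216 RPKM at ZT8 and 1.07 and 0.954 RPKM at ZT12 in alpha cells. Beta cells had 0.626 and 0.800 RPKM at ZT8 and 7.92 and 5.41 RPKM at ZT12. Every ZT12 library was far above the ZT8 libraries of its cell type, and the rise of 6.41-fold, which the prior count in the log2 values understates, was called (log2 step over both 2.68, SE 0.29, limma adjusted p = 0.000503). In beta cells it was 8.86-fold (log2 step 3.15, SE 0.41, limma adjusted p = 0.00412). Fmo1, its relative (near it on chromosome 1), had 0.334 and 0.205 RPKM at ZT8 and 0.729 and 0.483 RPKM at ZT12 in alpha cells. Beta cells had 1.14 and 1.10 RPKM at ZT8 and 6.05 and 4.50 RPKM at ZT12 (log2 step over both 1.61, SE 0.26, limma adjusted p = 0.00827). Noct, a circadian enzyme that removes phosphate from nicotinamide cofactors, had 1.80 and 1.94 RPKM at ZT8 and 2.99 and 3.03 RPKM at ZT12 in alpha cells. Beta cells had 2.77 and 3.40 RPKM at ZT8 and 5.22 and 5.54 RPKM at ZT12 (log2 step over both 0.74, SE 0.14, limma adjusted p = 0.0351). Mthfd1l, a mitochondrial enzyme of folate metabolism, had 1.79 and 1.92 RPKM at ZT8 and 3.64 and 3.30 RPKM at ZT12 in alpha cells. Beta cells had 12.9 and 11.6 RPKM at ZT8 and 15.4 and 14.5 RPKM at ZT12. It was called over both (log2 step over both 0.59, SE 0.10, limma adjusted p = 0.0158) and in alpha cells (limma adjusted p = 0.0247). None of 7 clock kinases and ligases was called by limma or had an unadjusted p under 0.05, and their median step was 0.081 on the log2 scale.

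**Figure D4:**
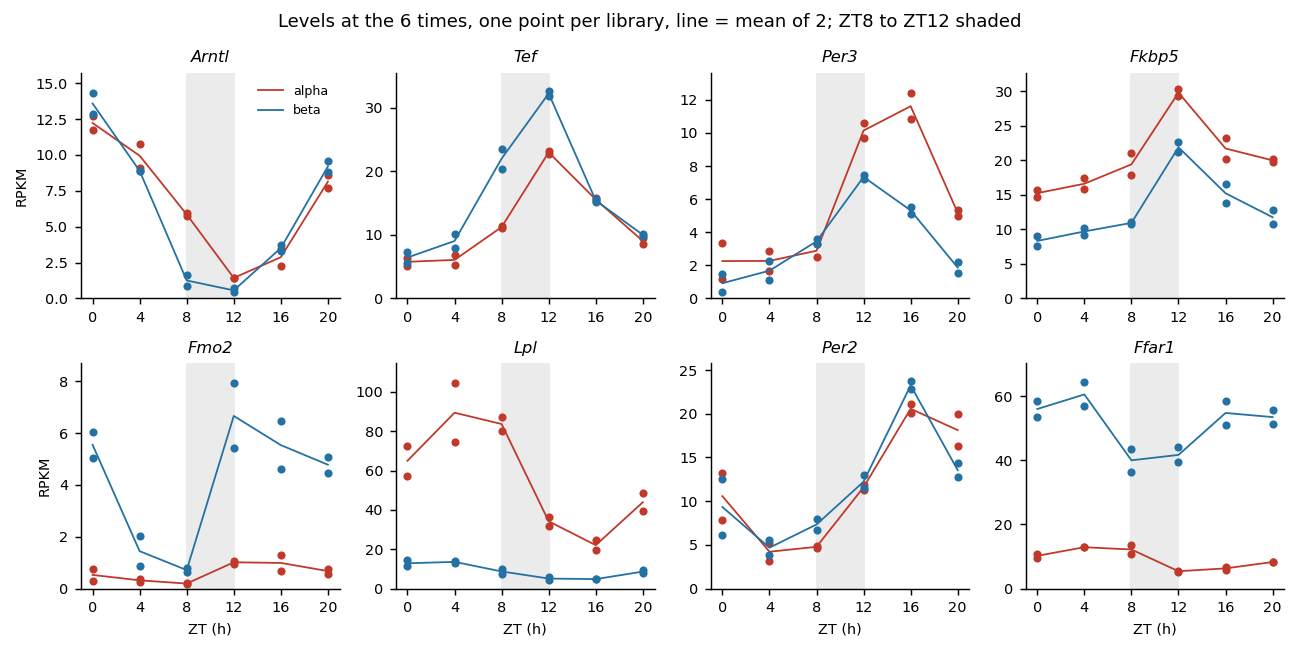
RPKM (y axis) of 8 genes at the 6 zeitgeber times (x axis, hours), one point per library, lines through the means of 2, alpha cells in red and beta cells in blue; the interval ZT8 to ZT12 is shaded. Tef and Fkbp5 peak and Arntl is lowest at ZT12 in both cell types.

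The glucocorticoid target Fkbp5 rose in both cell types. Fkbp5 encodes a co-chaperone of the glucocorticoid receptor and lies at chr17:28399094-28517527 of GRCm38 (minus strand). It had 21.0 and 17.8 RPKM at ZT8 and 30.3 and 29.2 RPKM at ZT12 in alpha cells. Beta cells had 10.8 and 11.0 RPKM at ZT8 and 22.6 and 21.1 RPKM at ZT12, with no overlap between times. The rise was 1.75-fold (log2 step over both 0.81, SE 0.09, limma adjusted p = 0.000503) and 2.00-fold in beta cells alone (limma adjusted p = 0.00412). Its means at the 6 times had their maximum at ZT12, at 29.8 RPKM (alpha) and 21.9 RPKM (beta). It was the 1 called of 15 measured glucocorticoid targets, against 0.328% of all genes. The median step of these targets was 0.32 on the log2 scale, against -0.03 over all genes. The median of the targets moved with the ZT8 libraries. Replicate 1 of ZT8 was the lowest of the 4 libraries for 11 of the 15 genes in alpha and 13 in beta cells. Without it the median was 0.080 (alpha library left out) or 0.15 (beta library left out), and without both it was -0.11, against 0.69 without both replicate 2 libraries. Of the others, Tsc22d3, which encodes the leucine zipper protein GILZ, had 5.55 and 5.92 RPKM at ZT8 and 6.39 and 6.05 RPKM at ZT12 in alpha cells. Beta cells had 8.84 and 9.11 RPKM at ZT8 and 12.7 and 14.1 RPKM at ZT12, without overlap (step over both 0.34, limma adjusted p = 0.197). Zbtb16 had 0.825 and 0.910 RPKM at ZT8 and 1.60 and 1.56 RPKM at ZT12 in alpha cells and was at 0 reads in 3 of the 4 beta libraries (limma adjusted p = 0.343).

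The calls of Fmo2 and Fkbp5 held under every one of 21 alternative settings, leaving out any 1 of the 8 libraries, both ZT8 libraries of either number, or recovered reads with voom and library totals among them. Arntl lost its call with recovered reads, voom and library totals (step -1.44, limma adjusted p = 0.0587) and Tef without both replicate 2 libraries of ZT8 (step 0.73, limma adjusted p = 0.0840).

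Sstr3, Wnt4, Sox4, Camta1, Elovl6, Krt7 and Cdk5rap1 rose as well. Sstr3, a somatostatin receptor, had 50.7 and 41.5 RPKM at ZT8 and 62.2 and 64.5 RPKM at ZT12 in alpha cells. Beta cells had 64.7 and 68.1 RPKM at ZT8 and 97.8 and 97.4 RPKM at ZT12 (log2 step over both 0.51, SE 0.087, limma adjusted p = 0.0149), without overlap. It was the 1 called higher among 27 receptors that act on secretion, with Ffar1 the 1 called lower, against 0.143% and 0.185% of all genes. Wnt4, a secreted Wnt ligand, had 28.0 and 30.8 RPKM at ZT8 and 42.2 and 45.0 RPKM at ZT12 in alpha cells. Beta cells had 30.1 and 25.7 RPKM at ZT8 and 45.0 and 40.7 RPKM at ZT12 (log2 step over both 0.59, SE 0.11, limma adjusted p = 0.0354). Both genes were higher in every ZT12 library of their cell type. Sox4, a transcription factor of endocrine development, had 6.68 and 7.23 RPKM at ZT8 and 11.2 and 11.7 RPKM at ZT12 in alpha cells. Beta cells had 5.45 and 5.59 RPKM at ZT8 and 13.2 and 12.7 RPKM at ZT12. Sox4 rose 1.96-fold (log2 step over both 0.97, SE 0.18, limma adjusted p = 0.0277). Camta1, a calmodulin-binding transcription factor, had 3.03 and 2.95 RPKM at ZT8 and 5.19 and 4.86 RPKM at ZT12 in alpha cells. Beta cells had 3.33 and 3.40 RPKM at ZT8 and 4.39 and 4.21 RPKM at ZT12 (log2 step over both 0.55, SE 0.081, limma adjusted p = 0.00441). Camta1 was called in alpha cells as well (limma adjusted p = 0.0183). Elovl6, which elongates fatty acids, had 3.97 and 4.59 RPKM at ZT8 and 4.79 and 4.99 RPKM at ZT12 in alpha cells. Beta cells had 6.79 and 7.32 RPKM at ZT8 and 11.8 and 11.4 RPKM at ZT12 (log2 step over both 0.45, SE 0.089, limma adjusted p = 0.0383), with the larger step in beta cells (0.71 against 0.19 in alpha cells; the difference was not called). Krt7, a keratin known as a duct marker, had 16.6 and 15.8 RPKM at ZT8 and 21.0 and 21.3 RPKM at ZT12 in alpha cells. Beta cells had 27.9 and 28.4 RPKM at ZT8 and 39.3 and 41.0 RPKM at ZT12 (log2 step over both 0.45, SE 0.071, limma adjusted p = 0.00791), and the part of duct cells in it was not tested. The 4 measured duct markers, Krt7 among them, summed to 98.3 and 87.7 RPKM at ZT8 and 85.5 and 70.6 RPKM at ZT12 in alpha cells. In beta cells their sums were 49.8 and 40.1 RPKM at ZT8 and 52.5 and 51.6 RPKM at ZT12. Cdk5rap1 had 5.32 and 4.82 RPKM at ZT8 and 10.7 and 8.36 RPKM at ZT12 in alpha cells. Beta cells had 4.32 and 4.74 RPKM at ZT8 and 6.52 and 7.20 RPKM at ZT12 (log2 step over both 0.74, SE 0.14, limma adjusted p = 0.0273).

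Outside the naming rule, and named after their values were seen, Slc15a2, a peptide transporter, and the interferon-responsive genes Ifit3 and Nlrc5 were called higher from low levels. Slc15a2 had 0.821 and 0.738 RPKM at ZT8 and 2.10 and 2.25 RPKM at ZT12 in alpha cells. Beta cells had 0.391 and 0.267 RPKM at ZT8 and 0.902 and 1.03 RPKM at ZT12 (limma adjusted p = 0.0275). Ifit3 rested on few reads, 2 and 3 reads at ZT8 against 12 and 9 at ZT12 in alpha cells, and 8 and 9 against 24 and 30 in beta cells, and so did Nlrc5, with 1 and 6 reads at ZT8 against 34 and 5 at ZT12 in alpha cells, and 0 and 0 against 11 and 10 in beta cells. Sgsm3, Mpi and Naa60 were the other 3 higher genes, with steps of 0.58, 0.45 and 0.41 on the log2 scale (limma adjusted p = 0.0383, 0.0447 and 0.0412).

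Lpl, Ppp1r3c and C8b were among the genes that fell. Lpl, lipoprotein lipase, had 80.2 and 87.2 RPKM at ZT8 and 32.0 and 36.4 RPKM at ZT12 in alpha cells. Beta cells had 7.27 and 10.1 RPKM at ZT8 and 5.85 and 4.31 RPKM at ZT12, without overlap in either. Lpl (chr8:68880491-68907448 of GRCm38, plus strand) fell 2.04-fold over both (log2 step over both -1.03, SE 0.15, limma adjusted p = 0.00348) and 2.45-fold in alpha cells (limma adjusted p = 0.0247). It was the 1 called of 22 measured genes of fasting and fatty acid oxidation, against 0.328% of all genes. Ppp1r3c, a glycogen-targeting subunit of protein phosphatase 1, had 2.11 and 2.47 RPKM at ZT8 and 0.577 and 0.764 RPKM at ZT12 in alpha cells. Beta cells had 1.81 and 2.14 RPKM at ZT8 and 1.03 and 1.38 RPKM at ZT12 (log2 step over both -1.18, SE 0.24, limma adjusted p = 0.0417). C8b, a complement gene, had 116 and 120 RPKM at ZT8 and 77.3 and 78.9 RPKM at ZT12 in alpha cells. Beta cells had 10.2 and 10.5 RPKM at ZT8 and 5.19 and 3.92 RPKM at ZT12 (log2 step over both -0.89, SE 0.17, limma adjusted p = 0.0277). Without both replicate 2 libraries of ZT8 the step of Lpl was -0.88 (limma adjusted p = 0.103).

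Rab6b, Pak1, Relt, Gprc5b, Gprin3 and Slc41a3 fell as well. Rab6b, a Golgi Rab GTPase, had 2.84 and 2.03 RPKM at ZT8 and 0.924 and 0.838 RPKM at ZT12 in alpha cells. Beta cells had 5.03 and 4.46 RPKM at ZT8 and 1.83 and 1.44 RPKM at ZT12. The fall was 2.76-fold (log2 step over both -1.46, SE 0.20, limma adjusted p = 0.00260). Pak1, a kinase that acts on the actin cytoskeleton, had 2.68 and 2.79 RPKM at ZT8 and 1.51 and 1.42 RPKM at ZT12 in alpha cells. Beta cells had 5.82 and 5.37 RPKM at ZT8 and 3.03 and 3.63 RPKM at ZT12 (log2 step over both -0.81, SE 0.11, limma adjusted p = 0.00260). At each time both genes had higher levels in the beta than in the alpha libraries. Relt, a receptor of the TNF receptor family, had 7.07 and 9.20 RPKM at ZT8 and 4.05 and 4.72 RPKM at ZT12 in alpha cells. Beta cells had 6.35 and 7.70 RPKM at ZT8 and 3.84 and 4.27 RPKM at ZT12 (log2 step over both -0.83, SE 0.11, limma adjusted p = 0.00183). Gprc5b, an orphan receptor of class C, had 4.67 and 4.39 RPKM at ZT8 and 2.39 and 2.96 RPKM at ZT12 in alpha cells. Beta cells had 0.831 and 0.915 RPKM at ZT8 and 0.297 and 0.360 RPKM at ZT12 (log2 step over both -1.03, SE 0.16, limma adjusted p = 0.00662). Gprin3, whose protein binds G proteins, had 6.52 and 7.07 RPKM at ZT8 and 3.89 and 4.27 RPKM at ZT12 in alpha cells. Beta cells had 7.46 and 8.30 RPKM at ZT8 and 5.72 and 4.82 RPKM at ZT12 (log2 step over both -0.65, SE 0.10, limma adjusted p = 0.00791). Slc41a3, a magnesium transporter, had 1.72 and 2.36 RPKM at ZT8 and 1.17 and 1.14 RPKM at ZT12 in alpha cells. Beta cells had 7.37 and 7.71 RPKM at ZT8 and 3.17 and 3.78 RPKM at ZT12 (log2 step over both -0.93, SE 0.15, limma adjusted p = 0.00827). In each of these 6 genes all ZT12 libraries were below all ZT8 libraries of the same cell type.

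Named after their values were seen, Ppm1b, a protein phosphatase, Glb1l2, a beta-galactosidase-like gene, Vdr, the vitamin D receptor, Gpd2, the mitochondrial glycerol-3-phosphate dehydrogenase, Ntrk2, the receptor of BDNF, Auh, Apoa2, Spon2, Orc6 and Ypel2 were also called lower. Vdr had lower levels in every ZT12 library of its cell type (log2 step over both -0.62, SE 0.13, limma adjusted p = 0.0487). Gpd2 had 12.5 and 12.5 RPKM at ZT8 and 8.55 and 8.08 RPKM at ZT12 in alpha cells. Beta cells had 17.4 and 15.9 RPKM at ZT8 and 13.1 and 11.5 RPKM at ZT12 (log2 step over both -0.51, SE 0.095, limma adjusted p = 0.0275). The other 2 lower genes were a predicted and an antisense gene. The steps of the 10 named first ran from -0.63 in Spon2 to -0.42 in Ypel2. Fcer1g and Cd93, which macrophages and endothelial cells express, were called lower on few reads, Fcer1g with 2 and 1 reads at ZT8 against 0 and 0 at ZT12 in alpha cells, and 19 and 18 against 3 and 4 in beta cells, and Cd93 with 10 and 6 reads at ZT8 against 0 and 0 at ZT12 in alpha cells, and 55 and 56 against 16 and 32 in beta cells. Of 6 measured immune markers and 5 endothelial markers none was called; the immune markers summed to between 52.5 and 71.0 RPKM at ZT8 and between 42.0 and 50.5 RPKM at ZT12 over the 8 libraries, and the endothelial markers to between 3.82 and 7.61 RPKM and between 3.32 and 6.79 RPKM, with no marker at 0 reads in any of the 8. Of the 11 markers, 1 immune marker had an unadjusted p under 0.05. The part of these cells in the 2 falls was not tested.

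In alpha cells alone 16 genes (0.114%) were called, 5 higher and 11 lower, and 13 of them were among the 46. Among them were Tef, Fmo2, Camta1 and Mthfd1l, which rose, and Arntl, Lpl, Relt, Pak1, Ppm1b, Ypel2, Ffar1, Ffar3, Actr3b, Sphkap and a predicted gene, which fell; Ffar3, Actr3b and Sphkap were not called over both cell types. Ffar1, the receptor of long-chain fatty acids on islet cells (chr7:30857390-30861564 of GRCm38, minus strand), had 13.6 and 10.7 RPKM at ZT8 and 5.58 and 5.23 RPKM at ZT12 in alpha cells, a 2.19-fold fall (log2 step -1.13, SE 0.13, limma adjusted p = 0.00299), and 43.5 and 36.5 RPKM at ZT8 and 44.0 and 39.4 RPKM at ZT12 in beta cells, where the times overlapped (step 0.063). Ffar3, a receptor of short-chain fatty acids, had 1.52 and 1.62 RPKM at ZT8 and 0.813 and 0.698 RPKM at ZT12 in alpha cells (log2 step -0.95, SE 0.17, limma adjusted p = 0.0431) and 6.58 and 5.46 RPKM at ZT8 and 5.72 and 5.66 RPKM at ZT12 in beta cells. Actr3b, an actin-related protein, had 1.53 and 1.79 RPKM at ZT8 and 0.616 and 0.760 RPKM at ZT12 in alpha cells (log2 step -1.15, SE 0.21, limma adjusted p = 0.0431) and 4.59 and 4.02 RPKM at ZT8 and 4.99 and 4.79 RPKM at ZT12 in beta cells. Without replicate 2 of the ZT12 alpha cells, the shallowest library, 0 genes were called in alpha cells by limma, without replicate 1 of the ZT8 alpha cells 1, without replicate 2 of the ZT8 alpha cells 3, and without any 1 of the 4 beta libraries 8 or 9.

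In beta cells alone 3 genes (0.0214%) were called, all higher, Fmo2 and Fkbp5 among them. Without either ZT8 beta library the count was 0 by limma, and without replicate 1 of the ZT12 beta cells it was 1. Genes with larger steps in beta than in alpha cells included Fmo1 (2.17 against 1.06 on the log2 scale) and Sox4 (1.23 against 0.72), but in beta cells neither passed the test (adjusted p by limma = 0.0601 and 0.127).

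No gene was called for a difference between the alpha and beta steps in the limma fit (0 of 14027 genes, 0%; 440 had an unadjusted p under 0.05). Of the alternatives, voom on recovered reads gave 0 genes, time and number as a random block 1, leaving out replicate 1 of the ZT8 alpha cells 1, leaving out replicate 1 of the ZT12 alpha cells 3 and leaving out both replicate 1 libraries of ZT8 1. The lowest p was that of Ffar1, with a difference of -1.19 on the log2 scale (SE 0.19, limma adjusted p = 0.122, with a range over the alternatives from 0.00801 with the random block to 1.00). Cabp7, a calcium-binding protein, was next, with 9.18 and 7.95 RPKM at ZT8 and 6.16 and 6.04 RPKM at ZT12 in alpha cells. Beta cells had 45.4 and 48.2 RPKM at ZT8 and 69.3 and 67.1 RPKM at ZT12 (difference -1.03, limma adjusted p = 0.351). Lyve1, a hyaluronan receptor, had 0.630 and 0.798 RPKM at ZT8 and 0.411 and 0.580 RPKM at ZT12 in alpha cells. Beta cells had 5.21 and 5.45 RPKM at ZT8 and 11.2 and 10.5 RPKM at ZT12. Tenm3, a teneurin, had 3.23 and 2.47 RPKM at ZT8 and 1.99 and 1.83 RPKM at ZT12 in alpha cells. Beta cells had 16.1 and 13.6 RPKM at ZT8 and 18.9 and 19.1 RPKM at ZT12 (limma adjusted p = 1.00 for both differences). In Cabp7, Lyve1 and Tenm3 the alpha libraries lay lower and the beta libraries higher at ZT12. The rule also named Actr3b (difference -1.33), Scarf2 (-1.57), Rrm2 (-1.24), Mpeg1 (-3.05) and Nacc2 (-0.92), with the same sign, and Fam20a (0.97), with the opposite sign, on the log2 scale (limma adjusted p = 1.00 for each); Scarf2, Rrm2 and Mpeg1 were under 1 RPKM in every alpha library. Of the 46 genes called over both cell types, 45 stepped in the same direction in both, Ffar1 being the exception.

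**Figure D5:**
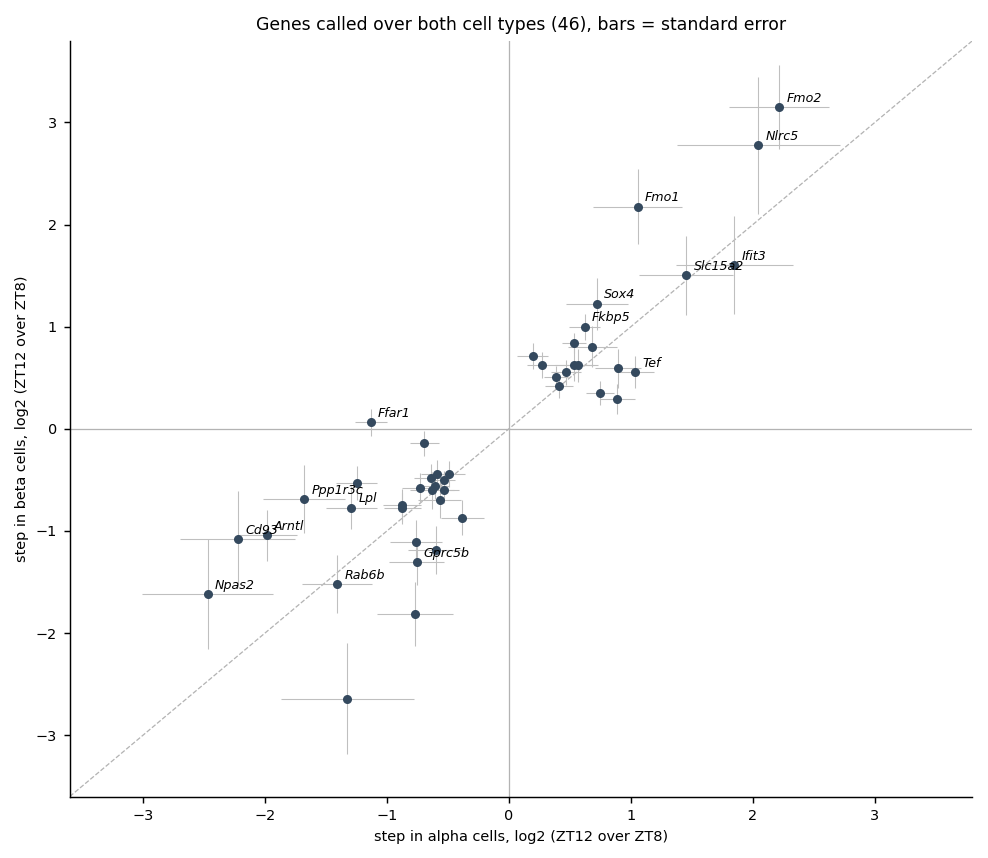
Step from ZT8 to ZT12 on the log2 scale in alpha cells (x axis) and beta cells (y axis) of the 46 genes called over both, with standard errors; the dashed line marks equal steps. Ffar1 is the 1 gene with steps of opposite sign.

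The hormone genes did not pass the test. Gcg had 165000 and 148700 RPKM at ZT8 and 129300 and 133200 RPKM at ZT12 in alpha cells, and Ins2 had 219300 and 199900 RPKM and 164600 and 177400 RPKM in beta cells; both were lower in each ZT12 library, by 0.26 (limma adjusted p = 0.937) and 0.29 (limma adjusted p = 0.918) on the log2 scale. Ins1, a near-identical copy whose reads may be split with Ins2, had 101900 and 97420 RPKM and 80710 and 83590 RPKM in beta cells. Of 13 measured prohormone processing genes none was called by limma (3 lower at an unadjusted p under 0.05), 10 had a negative step, against 7688 of all 14027 genes, and 5 separated downward without overlap (11.9% of all genes), with a median step of -0.18 on the log2 scale. Pam, which amidates peptide hormones, had 247 and 231 RPKM at ZT8 and 176 and 167 RPKM at ZT12 in alpha cells. Beta cells had 154 and 123 RPKM at ZT8 and 105 and 106 RPKM at ZT12 (step over both -0.43, limma adjusted p = 0.355). By limma none of 28 measured genes of glucose sensing and excitability was called (1 higher and 2 lower at an unadjusted p under 0.05). Casr, the calcium-sensing receptor, had 31.0 and 27.6 RPKM at ZT8 and 20.6 and 21.5 RPKM at ZT12 in alpha cells. Beta cells had 41.6 and 34.0 RPKM at ZT8 and 29.7 and 28.7 RPKM at ZT12 (step over both -0.42, limma adjusted p = 0.105).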

How the data were processed

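RNA was sequenced from alpha and beta cells with stranded total RNA libraries depleted of ribosomal RNA, as the labels' protocols describe. STAR, edgeR and mm10 are named in the submitters' processing notes, without versions, and no source used here gives the annotation or counting. For each library the authors deposited log2 values of 14027 genes, which the values show to be log2 RPKM with a prior count (mean 2.0). Whole reads were recovered from their steps in 100% of values, within 0.01 reads, and RPKM in the text is computed from these reads without a prior count.

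The 24 libraries were fitted with limma 3.58.1 (R 4.3.3, trend and robust) on the deposited log2 values as 12 means of cell type by time, with no replicate block, and p-values were adjusted by Benjamini-Hochberg over all genes. The scripts were tested on simulated data in which every library was drawn independently. Real libraries of the same time and number deviated together at some times, so that test gives no error rate for the calls over both cell types. The step of both cell types is the mean of the alpha and beta steps. Of 14027 identifiers 13802 matched the table of GENCODE gene names, and positions are those of GRCm38, the assembly of mm10. The number of replicates (2 per group) limits every test, and replicates of a group differed by more than sampling noise (mean chi-square per gene 2.97 to 12.3 in the 4 groups at ZT8 and ZT12). The median chi-square was lower, at 0.70 to 1.69, so the mean does not describe the typical gene.

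The members and lists were chosen with earlier results of these data known. The rule for named genes took all measured clock activators, repressors and PAR bZIP factors, the 10 largest called rises and falls with a mean log2 RPKM of at least 0 and 1 direction, 5 per direction in each cell type, up to 4 genes of each list, the 10 lowest p of the difference, and 5 hormone genes; predicted genes were counted but not named. Alternatives were other scales, filters, scalings, libraries and blocks, and leaving out each library. Leaving out both ZT8 libraries of 1 number was chosen after seeing the data. Results of some genes are not reported here.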

Additional observations from a re-analysis of the deposited data

How the results depend on the processing

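With the mean step over both cell types, 46 genes were called, and 307 with the 8 libraries alone, 378 when those had cell type and time as additive factors, 26 without both ZT8 libraries numbered 1, 12 without both numbered 2, and 16 to 34 without any 1 of the 8 libraries. The alpha step, with 16 genes, gave 32 on log2(RPKM + 1), 8 with each library re-centred on its median, 6 with recovered reads and voom, 8 and 4 without the ZT8 libraries numbered 1 and 2, and 0 to 12 without 1 library. The beta step, with 3 genes, gave 12 on log2(RPKM + 1), 10 with voom, 7 with the 8 libraries alone, 7 without trend and robust estimation, 0 without the ZT8 libraries of either number, and 0 to 4 without 1 library. The difference of the steps, with 0 genes, gave 1 without the ZT8 libraries numbered 1 and 0 to 3 without 1 library. Several of these alternatives use fewer libraries, and the cause of the changes was not tested.

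Libraries of the same time and number (1 alpha, 1 beta) deviated together at some times, with correlations of their replicate differences of 0.73, 0.55, 0.51, 0.17, 0.15 and 0.031 from ZT0 to ZT20, while the same numbers at ZT8 and ZT12 had -0.13 in alpha and -0.17 in beta cells. With the replicate number as a block the 4 counts were 43, 9, 5 and 0, and with time and number as a random block (correlation 0.37) 15, 18, 4 and 1. The labels do not say what a number shares, so these fits are given for the counts only.

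Of the 46 genes called over both cell types, 45 (all but the predicted gene) were followed across settings, of which 3 kept the call in all 21 settings and none changed sign; 554 of 938 combinations of gene and setting kept the call. Of the clock genes that were not called, Rora had steps of 0.077 with voom, 0.0071 without replicate 1 of the ZT8 alpha cells, 0.0089 without replicate 1 of the ZT12 alpha cells, 0.0034 without replicate 1 of the ZT8 beta cells and 0.035 without both ZT8 libraries numbered 1, and -0.057 without replicate 2 of the ZT12 alpha cells, against -0.024 as reported. Arntl2 had 0.0069 on log2(RPKM + 1), 0.15 without replicate 2 and -0.56 without replicate 1 of the ZT8 alpha cells, and 0.13 without both ZT8 libraries numbered 2, against -0.20. Genes with under 10 reads in some libraries (Npas2, Nlrc5, Ifit3, Fcer1g, Cd93) are limited by depth.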

Other observations

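Most genes of 2 lists, ribosomal proteins and oxidative phosphorylation, had negative steps, as did 7688 of all 14027 genes, and none was called by limma (1 ribosomal protein gene higher and 3 lower, and 0 and 1 respiratory gene, at an unadjusted p under 0.05, against 744 higher and 917 lower of all genes). Of 77 measured cytosolic ribosomal protein genes 73 had a negative step, 24 separated downward without overlap in both cell types and 0 upward (11.9% and 9.05% of all genes), with a median step of -0.21 on the log2 scale (-0.13 without replicate 1 of the ZT8 alpha cells) against -0.03 over all genes. Their sum was 12307 and 10257 RPKM in the ZT8 alpha libraries and 9881 and 10406 RPKM at ZT12, and 6889 and 6567 RPKM against 5497 and 5691 RPKM in beta cells, so the alpha libraries overlapped and replicate 1 of ZT8 held the highest level of 69 of the 77 genes there. Many of these genes have near-identical copies, among which reads may be split. Of 73 nuclear-encoded oxidative phosphorylation genes 67 had a negative step and 26 separated downward, with a median step of -0.15 and sums of 3759 and 3512 RPKM against 3278 and 3316 RPKM in alpha cells and 4340 and 4201 RPKM against 3641 and 3822 RPKM in beta cells. The part of the libraries' differences in acinar and immediate early genes in these steps was not tested.

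Heat shock genes also differed between the ZT8 libraries, with 16 of 23 lowest in replicate 1 of ZT8 among the alpha libraries and 19 of 23 among the beta libraries, where the immediate early genes were lowest too. Hspa8, a constitutive chaperone, had 83.6 and 90.2 RPKM at ZT8 and 117 and 102 RPKM at ZT12 in alpha cells. Beta cells had 61.9 and 92.3 RPKM at ZT8 and 103 and 100 RPKM at ZT12 (step over both 0.38, limma adjusted p = 0.344). The cold-inducible gene Cirbp had 50.1 and 47.2 RPKM at ZT8 and 39.6 and 48.5 RPKM at ZT12 in alpha cells. Beta cells had 56.9 and 51.6 RPKM at ZT8 and 45.8 and 54.9 RPKM at ZT12, and the times overlapped in both cell types. Rgs2, an inhibitor of G protein signalling that cAMP induces, had 18.7 and 22.8 RPKM at ZT8 and 32.6 and 31.6 RPKM at ZT12 in alpha cells. Beta cells had 15.5 and 38.8 RPKM at ZT8 and 64.5 and 77.2 RPKM at ZT12, without overlap (step over both 1.08, limma adjusted p = 0.303). Of 31 genes of the unfolded protein response none was called by limma (1 higher and 2 lower at an unadjusted p under 0.05). Herpud1, a component of protein degradation at the endoplasmic reticulum, had 64.3 and 91.1 RPKM at ZT8 and 111 and 116 RPKM at ZT12 in alpha cells. Beta cells had 125 and 158 RPKM at ZT8 and 178 and 174 RPKM at ZT12 (step over both 0.44, limma adjusted p = 0.214), and Dnajb9, a chaperone there, had 205 and 170 RPKM at ZT8 and 108 and 111 RPKM at ZT12 in beta cells and 62.5 and 67.6 RPKM at ZT8 and 66.0 and 61.0 RPKM at ZT12 in alpha cells. By limma none was called among 24 measured genes of sterol synthesis (1 higher and 2 lower at an unadjusted p under 0.05), 21 of the amino acid response (0 and 1) or 26 of autophagy and the lysosome (5 and 0).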
